A study of Homo sapiens with 4 samples.

Results

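ES15L and ES27L are expansion segments of human 28S rRNA, stretches that the large-subunit rRNA of animals carries in addition to the conserved core. They were taken as positions 2096 to 2260 (ES15L, 165 nt) and 2896 to 3597 (ES27L, 702 nt) of 28S, which are positions 10028 to 10192 and 10828 to 11529 of the 47S pre-rRNA, from which the mature 18S, 5.8S and 28S rRNAs are cut. The deposited coordinates count from the start of that RNA, whose genes lie in repeats on the short arms of the acrocentric chromosomes. Together they make up 867 of the 5070 nt of 28S and of the 13780 nt of the 47S. The rule used positions alone and no measured value, but the segments were chosen with earlier results of these data known. RNA crosslinked to NKRF, a nucleolar G-patch protein of ribosome biogenesis, was sequenced from HEK293 cells by CRAC (crosslinking and analysis of cDNA). The cells were Flp-In T-REx HEK293, a human embryonic kidney line with a tetracycline-inducible construct, and expressed Flag-His-NKRF or, as the control, Flag-His without a protein, each induced for 24 h. In the UV libraries cells were irradiated at 254 nm, and in the PAR libraries they received 100 µM 4-thiouridine for 6 h before irradiation at 365 nm. Each of the 4 combinations is 1 library, so the differences given here lack a replicate check and were not tested across samples. The tagged NKRF was expressed from an added construct, and the cell type could not be checked against markers in rRNA coverage.

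Expansion segments fold into long GC-rich helices that extend from the surface of the mature 60S subunit, the large subunit of the ribosome. ES27L is known for a long, mobile arm that can reach the mouth of the peptide exit tunnel, where it takes part in recruiting enzymes that process nascent chains. During assembly in the nucleolus such segments are part of the pre-rRNA and have to fold among assembly factors. CRAC reads report RNA that was covalently joined to the tagged protein or that came through the purification with it, which is what the tag-only libraries measure.

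Coverage is given in normalised hits, the reads over a nucleotide per 1000000 reads of the library, as deposited. The value of 1 read was 1.19 normalised hits for the tag alone and 0.920 for NKRF with UV, and 8.91 and 4.43 with PAR. The smallest number of reads from which a profile can arise was 513 (tag alone) and 11690 (NKRF) with UV and 3.03 and 2072 with PAR over ES15L. Over ES27L it was 1612 and 30814 with UV and 22.9 and 2924 with PAR. The tag-only PAR profile is therefore very thin in both segments. Intervals are 95% and cover counting error only. They count each read as 1 observation, and reads amplified by PCR from 1 molecule were not separated here.

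The sequences below are the stretches under the 3 coverage peaks common to both NKRF libraries, taken over both libraries' borders with 10 nt added on either side, and 1 stretch of ES27L without T, where PAR crosslinking through 4-thiouridine has no target. They are in the sense of the RNA with T for U, from the deposited nucleotide column. Capitals mark each T that was substituted in at least 10% of the NKRF PAR reads.
ES15L peak, 28S 2123 to 2205: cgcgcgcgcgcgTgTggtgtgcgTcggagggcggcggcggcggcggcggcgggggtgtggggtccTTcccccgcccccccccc
ES27L main peak, 28S 3047 to 3111: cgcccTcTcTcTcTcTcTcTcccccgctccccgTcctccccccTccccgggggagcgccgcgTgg
ES27L second peak, 28S 3345 to 3432: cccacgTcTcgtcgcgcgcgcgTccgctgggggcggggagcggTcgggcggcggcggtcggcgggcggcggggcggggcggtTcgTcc
ES27L stretch without T, 28S 3136 to 3191: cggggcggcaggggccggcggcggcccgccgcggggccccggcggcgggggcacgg
The ES27L main peak opens with an alternating run of C and T, the ES15L peak ends at a run of C, and the second ES27L peak is mostly G and C.

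Both segments were made almost entirely of G and C. GC content was 86.7% in ES15L and 87.7% in ES27L, against 65.7% in the other 4203 nt of 28S. ES15L held 16 T (9.70%) and 6 A (3.64%), and ES27L held 58 T (8.26%) and 28 A (3.99%), where the rest of 28S was 16.2% T and 18.2% A. The longest alternating run of C and T in ES27L spanned positions 3051 to 3067, 17 nt, and the longest elsewhere in the 47S was 9 nt, in ITS2. The motif CTCTCT, searched in the sense of the RNA with overlapping matches counted, occurred 6 times in ES27L, all in that run, and 0 times in ES15L. In all, 0.544% of the 551 tiles into which the 47S was cut contained it, and its reverse complement AGAGAG was in neither segment.

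With NKRF, the 2 segments took 42.9% of the 28S coverage after UV crosslinking and 43.6% after PAR crosslinking, on 17.1% of the length of 28S. With the tag alone they took 17.9% and 9.20%. Mean coverage of ES15L went from 166 normalised hits with the tag alone to 3508 with NKRF in the UV pair, and from 4.58 to 1817 in the PAR pair. Mean coverage of ES27L went from 127 to 2200 and from 7.44 to 685. In each mode both segments were higher with NKRF, and in the tag-only UV library ES27L had the same mean as the rest of 28S, 127 normalised hits.

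As a share of the 47S coverage, ES15L went from 0.559% to 4.90% with UV, 8.77-fold (8.02 to 9.59), and from 0.224% to 7.47% with PAR, 33.3-fold (11.4 to 160). ES27L went from 1.81% to 13.1% with UV, 7.22-fold (6.86 to 7.59), and from 1.55% to 12.0% with PAR, 7.73-fold (5.14 to 12.2). The PAR fold of ES15L rests on about 3.03 tag-only reads. On the deposited scale, per 1000000 reads of the library, the UV folds were 21.1 and 17.4 and the PAR folds 397 and 92.1 for ES15L and ES27L. As shares of 28S coverage they were 2.77 and 2.28 with UV, and 14.4 and 3.34 with PAR. Each scale printed here gave a ratio above 1. The 18S share of the 47S coverage fell with NKRF, from 82.2% to 42.2% with UV and from 68.3% to 4.20% with PAR. The shares of the other parts together rise by as much. The ES27L ratio was 0.823 times that of ES15L with UV (0.744 to 0.912) and 0.232 times with PAR (0.0700 to 0.771), so ES15L differed more from its control in both modes.

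The rest of 28S moved less. Its share of the 47S coverage was 2.195-fold higher with NKRF in the UV pair (2.15 to 2.24) and 1.44-fold higher in the PAR pair (1.25 to 1.67). Set against it, the UV ratio of ES15L was 3.99 times as large (3.65 to 4.37) and that of ES27L 3.29 times (3.11 to 3.47). With PAR the ES15L ratio was 23.1 times as large (7.43 to 72.0) and the ES27L ratio 5.37 times (3.47 to 8.31). The 635 nt between the segments had a UV ratio of 1.92 (1.83 to 2.01) and a PAR ratio of 0.349 (0.252 to 0.493). The part 3′ of ES27L had 1.80 (1.74 to 1.86) and 0.301 (0.242 to 0.378). In the PAR pair these flanking parts thus held a smaller share with NKRF than with the tag alone, while both expansion segments held a larger one. Per 1000000 reads of the library, however, the flanking parts were also higher with NKRF in that pair, 4.15-fold and 3.58-fold. The part of 28S before ES15L was closer to ES27L. Its ratios were 2.85 with UV and 3.99 with PAR, and ES27L exceeded it 2.53 times with UV (2.38 to 2.69) and 1.94 times with PAR (1.19 to 3.16). Outside 28S, the UV ratio of ITS2 was 16.6 (15.1 to 18.2), above both segments. Those of ITS1, the 5′ ETS and 5.8S were 5.34, 2.21 and 2.58, below both. The PAR ratios of ITS2 and ITS1 were 5.74 (3.53 to 10.0) and 3.08 (2.24 to 4.34). Those of the 5′ ETS and 5.8S were 4.49 (3.72 to 5.48) and 0.688 (0.384 to 1.36). All 4 values were below both segments, but the intervals of ITS2 and the 5′ ETS overlapped that of ES27L (5.14 to 12.2).

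**Figure D1:**
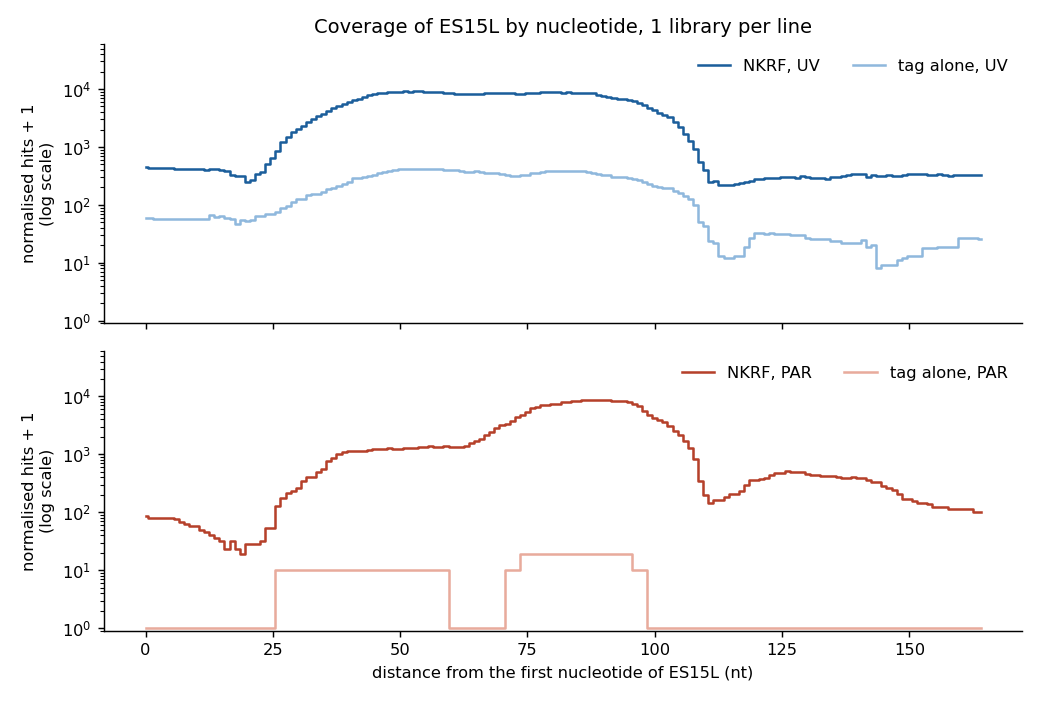
Coverage of each nucleotide of ES15L in normalised hits plus 1, on a log axis, against the distance from its first nucleotide, with the UV libraries above and the PAR libraries below (1 library per line). The NKRF UV profile is a plateau with its highest value of 9126, the NKRF PAR profile rises to 8657 in the 3′ part of that plateau, and the tag-only PAR profile does not exceed 18.

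ES15L carried 1 peak in each library that was deep enough to show one. In the NKRF UV library it reached 9126 normalised hits at position 2147 and stayed above 50% of its height from 2133 to 2195, 63 nt that held 86.5% of the segment's coverage. The tag-only UV profile had its peak of 420 at position 2148, with borders at 2135 and 2195. The NKRF PAR peak was narrower and lay further 3′, at 8657 normalised hits at position 2183, with borders at 2169 and 2195 and 66.2% of the coverage. This was the highest value of that library anywhere on the 47S. Peaks needed at least 10 reads, and the tag-only PAR profile, at most 18 normalised hits or 2.02 reads, had none.

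The 3 peaks of ES15L shared their 3′ border at position 2195, the G before the run of C. From there the NKRF UV coverage fell from 4774 to 544 normalised hits over 10 nt, and the NKRF PAR coverage from 4782 to 819 over 9 nt. The 5′ sides differed. At the UV summit, position 2147, the NKRF PAR library had 1275 normalised hits, while at the PAR summit, position 2183, the NKRF UV library still had 8539. Across the 165 nt the Spearman correlation of coverage was 0.94 for the 2 UV libraries and 0.69 for the 2 NKRF libraries, as descriptions, since neighbouring nucleotides share reads.

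**Figure D2:**
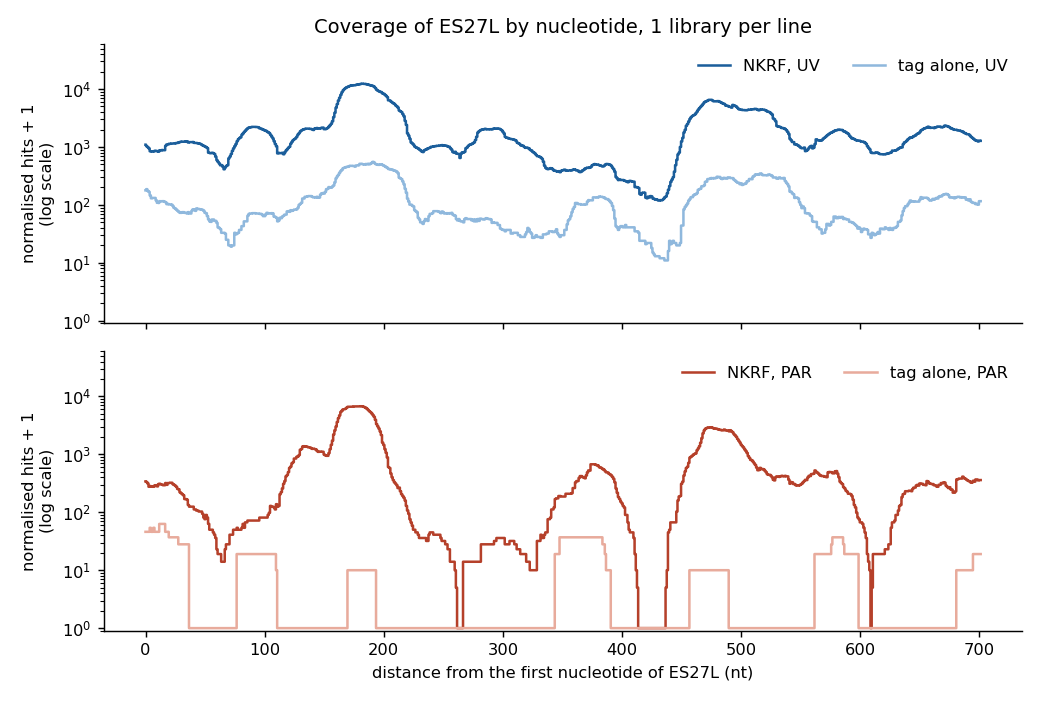
Coverage of each nucleotide of ES27L in normalised hits plus 1, on a log axis, against the distance from its first nucleotide, with the UV libraries above and the PAR libraries below (1 library per line). Both NKRF profiles peak near 180 and 475 nt from the start, at 12397 and 6536 with UV and at 6775 and 2936 with PAR. Between them the NKRF PAR profile drops to near 0, rises to 673 and drops again.

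ES27L had the same 2 peaks in both NKRF libraries. The main one reached 12397 normalised hits at position 3078 with UV and 6775 at position 3077 with PAR, each the highest value of ES27L, and the UV value was the highest of all 28S in that library. At position 3078 the tag-only libraries had 506 (UV) and 9 (PAR) normalised hits, the latter about 1.01 reads. Its borders at 50% of the height were 3058 and 3101 with UV, holding 29.2% of the segment's coverage, and 3057 and 3089 with PAR, holding 40.7%. The bases under the PAR peak were 93.9% C and T.

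The second peak reached 6536 normalised hits at position 3370 with UV and 2936 at position 3371 with PAR. At 3370 the tag-only UV library had 283. The peak ran from 3355 to 3422 with UV and from 3362 to 3396 with PAR, and held 21.6% and 17.9% of the segment's coverage. Pyrimidines made up 35.3% of the bases under it with UV, against 79.5% under the main peak. Both peaks were therefore narrower in the PAR library, as in ES15L, and they differed in base makeup.

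The tag-only UV profile of ES27L had 3 peaks. The first 2, at 553 normalised hits at position 3087 and 348 at position 3412, overlapped the NKRF peaks, with borders of 3056 to 3110 and 3362 to 3436. The third, 139 normalised hits at position 3277 from 3255 to 3288, had no counterpart among the NKRF peaks. The peak rule scales with the segment's highest coverage in each library. Within those borders NKRF coverage still reached 673 normalised hits with PAR and 508 with UV. Over the 702 nt the coverage of the 2 UV libraries correlated at 0.74 (Spearman) and that of the 2 NKRF libraries at 0.63. The tag-only UV and NKRF PAR profiles correlated at 0.81. With the thin tag-only PAR profile the correlation was 0.30 for NKRF PAR and 0.02 for NKRF UV. The shape of the coverage in ES27L was thus partly shared with the UV control.

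To see where within the segments the libraries differed, the 47S was cut at the segment borders into 551 tiles of about 25 nt, 7 in ES15L and 28 in ES27L. Tiles with a mean of 20 normalised hits or more in either library of a pair were examined. After adding 1 normalised hit to each mean as a pseudocount, a difference of at least 2-fold in the share of 47S coverage was a call. In the UV pair 7 of 7 tiles of ES15L and 26 of 28 tiles of ES27L were called higher with NKRF, and 0 were called lower. Over all 494 examined tiles of the 47S, 61.1% were called higher and 6.07% lower, and in the rest of 28S 78 of 168 were higher. In the PAR pair 7 of 7 and 20 of 27 were called higher and 1 tile of ES27L lower, against 49.0% higher and 33.0% lower over 467 examined tiles and 48 of 141 higher in the rest of 28S. Tiles called higher in both modes numbered 7 of 7 in ES15L and 19 of 27 in ES27L, against 44.5% over the 47S.

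The median log2 ratio was 2.97 in ES15L and 2.73 in ES27L with UV, beside 1.64 over the 47S and 0.97 over the rest of 28S. With PAR it was 4.58 and 1.62, beside 0.86 and -0.69. The tag-only PAR coverage was 0 in 3 of the 7 tiles of ES15L and 13 of the 27 of ES27L, where the pseudocount sets the ratio, the ES27L median included. With those tiles at the bound from 3 reads, the PAR medians were 2.65 and -0.10, beside -1.02 over the 47S and -1.42 over the rest of 28S. In ES15L the bounds of the 3 tiles were 0.158, 1.35 and 0.556, so none reached 2-fold, and with a pseudocount of 10 the PAR calls were 5 of 7. Of the 20 PAR calls in ES27L, 12 had a tag-only coverage of 0, and a floor of 3 reads left a bound of at least 2-fold in 2 of these. Of the other 8, the counting interval lay above 1 in 6. With a pseudocount of 10 the PAR calls in ES27L were 9 higher and 9 lower, and as shares of 28S coverage 11 higher and 6 lower, while the UV calls were 26 and 0, and 16 and 0.

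**Figure D3:**
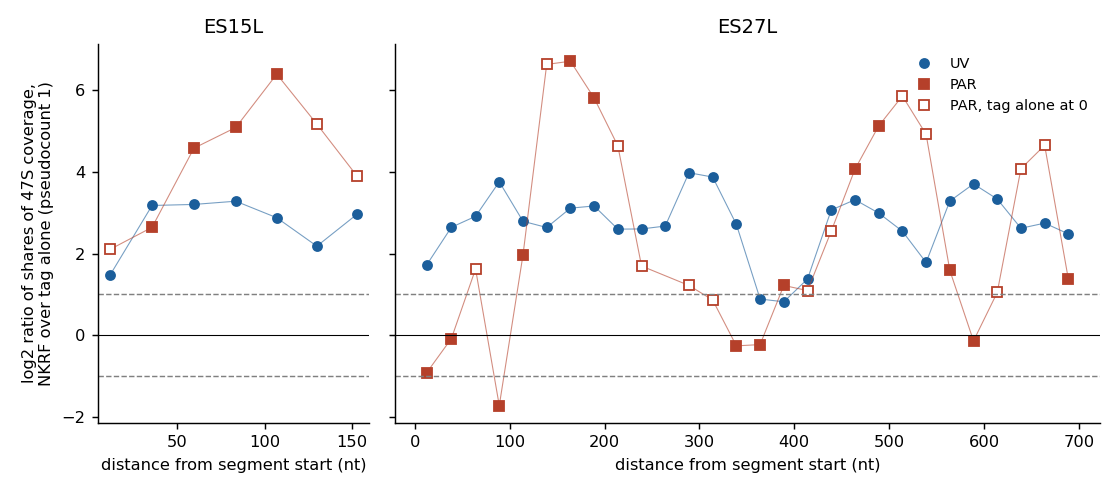
Log2 ratio of the share of 47S coverage, NKRF over tag alone, for each examined tile of about 25 nt (pseudocount 1), against the distance of its centre from the start of the segment, with dashed lines at 2-fold and open squares where the tag-only PAR coverage was 0. UV ratios lie between 0.82 and 3.98 in ES27L, and PAR ratios range from -1.72 to 6.71.

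The largest UV ratios of ES27L lay outside its peaks. Positions 3173 to 3197 averaged 1940 normalised hits in the NKRF and 50.1 in the tag-only library, 16.1-fold by share of the 47S (12.4 to 21.3). Positions 3198 to 3222 had 1148 and 31.6, 15.1-fold (11.1 to 21.1). Positions 2973 to 2997 were 13.8-fold higher (10.7 to 17.9), 3473 to 3497 13.3-fold (10.3 to 17.6) and 3498 to 3522 10.4-fold (7.87 to 14.0). The 2 tiles along the main peak, 3048 to 3072 and 3073 to 3097, were 8.68-fold (7.86 to 9.61) and 9.01-fold (8.24 to 9.86) higher. In the second peak, 3348 to 3372 was 10.04-fold higher (8.84 to 11.5), next after the 5 named tiles, and 3373 to 3397 was 7.997-fold higher (7.12 to 9.02). These peak tiles lay above the median tile of ES27L, 6.64-fold with the pseudocount, and below the 5 largest ratios. The last tile of the second UV peak, 3398 to 3422, lay below that median, at 5.88-fold (5.24 to 6.61), or 5.86-fold with the pseudocount. In ES15L the largest UV ratios, 9.77 at 2168 to 2191 (8.76 to 10.9) and 9.25 at 2144 to 2167 (8.34 to 10.3), lay within the peak.

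The 2 tiles of ES27L that were not called with UV adjoined each other, at 3248 to 3272 and 3273 to 3297. Their means were 410 and 419 normalised hits for NKRF and 91.4 and 98.0 for the control, 1.87-fold (1.53 to 2.29) and 1.78-fold (1.46 to 2.18). These tiles contain the third tag-only UV peak. In the PAR pair the first of them averaged 375 normalised hits for NKRF and 36.0 for the control, a share ratio of 0.876 (0.337 to 3.22). The second averaged 427 and 14.4, a ratio of 2.49 (0.956 to 9.17), and was called higher, with an interval that includes 1.

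With PAR the largest ratios of ES27L lay in the peaks or in the tiles beside them. Positions 3048 to 3072 averaged 4401 normalised hits for NKRF and 2.52 for the control, 147-fold (26.5 to 5612), and 3073 to 3097 had 4764 and 6.12, 65.4-fold (11.8 to 2501). In the second peak, 3373 to 3397 was 42.4-fold higher (7.64 to 1625). The tag-only values of these 3 tiles rest on about 1.01 reads each. Positions 3023 to 3047 had 1183 with NKRF and 0 with the tag alone, at least 3.72-fold higher, and positions 3398 to 3422 had 692 and 0, at least 2.17-fold. In ES15L, positions 2192 to 2214 were 156-fold higher (28.2 to 5969, about 1.01 tag-only reads), and 2215 to 2237 had 429 and 0, at least 1.35-fold. Next in the order with the pseudocount, positions 2168 to 2191 had 7405 and 17.25, 36.0-fold (10.0 to 293, about 2.02 tag-only reads).

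The tile called lower with PAR, 2973 to 2997, averaged 67.6 normalised hits for NKRF and 18, or 2.02 reads, for the control. Its share ratio was 0.315, with an interval from 0.0775 to 2.73 that includes 1. In the UV pair the same positions had 1943 and 58.7 normalised hits.

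**Figure D4:**
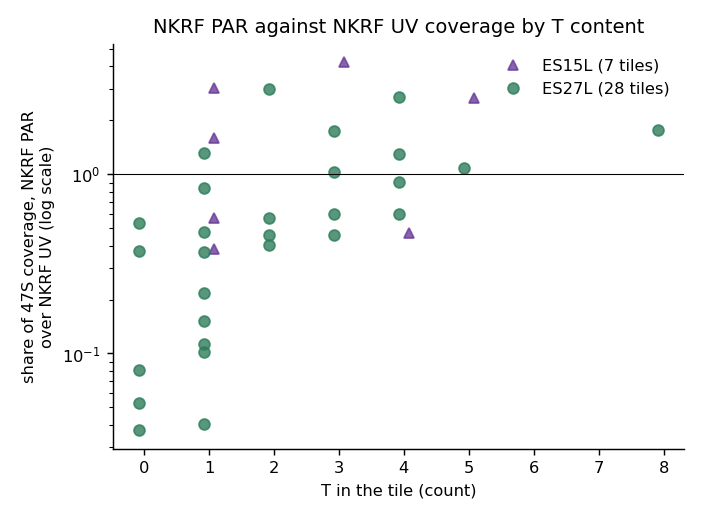
Ratio of a tile's share of 47S coverage in the NKRF PAR library to that in the NKRF UV library, on a log axis, against the number of T in the tile (7 tiles of ES15L, 28 of ES27L, shifted sideways for legibility). The 5 tiles without T have a median of 0.0805 and the 13 tiles with 3 or more T a median of 1.08.

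The NKRF PAR library held less of its coverage than the NKRF UV library in all tiles of ES27L without T. The same held for most of its tiles with 1 or 2 T and for some with 3 or more. 4-Thiouridine replaces uridine, so PAR crosslinks form at T of the cDNA sequence. Of the 35 tiles, 5 had no T, and their share of coverage with PAR was 0.0372 to 0.538 times that with UV, with a median of 0.0805. For 13 tiles with 1 T the median was 0.381, with a range of 0.0406 to 3.02, and the lowest of them, 3173 to 3197, 2973 to 2997 and 3123 to 3147 at 0.0406, 0.102 and 0.114, were as low as tiles without T. For 4 tiles with 2 T the median was 0.515 (0.403 to 2.996), and for 13 with at least 3 T it was 1.08, with a range of 0.456 to 4.21. The Spearman correlation of the T share with this ratio was 0.72 across the 28 tiles of ES27L, 0.40 across the 7 of ES15L and -0.11 across the 168 tiles of the rest of 28S. These are descriptions across tiles of the same pair of libraries, in which neighbouring tiles share reads.

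ES27L contained 5 stretches of at least 40 nt without T. The one printed above, 3136 to 3191, averaged 1296 normalised hits with UV and 21.6 with PAR for NKRF, and 60.6 and 0 for the tag alone. Its share was 20.4 times as large with UV as with PAR. It was chosen for print after its values were seen, as the lowest of the 5. Positions 2950 to 2991 had 1239 and 46.7 normalised hits in the NKRF UV and PAR libraries, 3193 to 3241 had 985 and 39.9, and 3483 to 3530 had 1059 and 76.4. The longest, 3294 to 3350 with 57 nt, was also the longest run without T in 28S. It had 375 and 77.8, and it ends a few nucleotides before the second peak. In each of the 5 the NKRF PAR mean was thus 77.8 normalised hits or less, and the NKRF UV mean was 375 or more.

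Substitutions are cDNA bases that differ from the reference, and a 4-thiouridine crosslinked to protein tends to be misread in this way. In the NKRF PAR library they were recorded at T alone. They made up 21.2% of the coverage at T in ES15L and 18.02% in ES27L, against 17.8% in the rest of 28S and 19.3% over the 47S. Summed, they amounted to 2376 reads in ES15L and 3431 in ES27L, beside at least 2072 and 2924 reads in the profiles. Since these read numbers are minimums, the number of substitutions per read is not known, and a share at a T is not read here as a crosslinking efficiency. The tag-only PAR substitutions were not analysed here, because that file holds the coverage in the column headed as substitutions.

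T was substituted in at least 50% of the NKRF PAR reads at 3 of 16 positions of ES15L and 9 of 57 of ES27L with at least 10 reads, against 8.36% of 1507 positions over the 47S and 48 of 438 in the rest of 28S. In ES15L, position 2189 stood out. It was substituted in 76.9% of 1882 reads (74.9 to 78.8) and carried 60.9% of the segment's substitutions. Position 2188, the T beside it, was substituted in 14.5% of 1907 reads (12.9 to 16.1). The other 2 positions of ES15L were 2137, at 63.7% of 256 reads (57.5 to 69.6), in the GT-rich 5′ part of the peak, and 2220, at 58.9% of 107 reads (49.0 to 68.3), beyond its 3′ border.

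In ES27L the highest shares lay outside the alternating run, and those of T with at least 50 reads are given first. Position 3109, 3′ of the main peak, was substituted in 91.7% of 60 reads (81.6 to 97.2), with no other T within 15 nt. Position 3028, upstream of the C and T run, was substituted in 84.1% of 308 reads (79.5 to 88.0), and position 3367, under the second peak, in 77.4% of 641 reads (73.9 to 80.6). Positions 3430, 3272 and 3476 followed, at 72.9% of 96 reads (62.9 to 81.5), 64.5% of 152 (56.3 to 72.1) and 57.8% of 116 (48.2 to 66.9). With fewer than 50 reads, position 3001 was at 86.2% of 29 (68.3 to 96.1) and 3531 at 65.9% of 41 (49.4 to 79.9). Position 2949 was at 50% of 14 (23.0 to 77.0).
The surroundings of the first 3, with the T in capitals, are shown for comparison with the run of C and T printed above.
28S 3099 to 3119: gagcgccgcgTgggggcggcg
28S 3018 to 3038: cgcgcgccgcTcgctccctcc
28S 3357 to 3377: cgcgcgcgcgTccgctggggg
Positions 3028 and 3367 had 2 and 3 other T within 15 nt, and positions 3430, 3272 and 3476 had 3 to 4. Positions 3001, 3531 and 2949 had 1, 1 and 0. The highest shares were thus found at isolated T and at T with others nearby.

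The T of the alternating run had lower shares. The 8 T from 3051 to 3067 were substituted in 10.1% to 21.3% of 329 to 1498 reads each, with a median of 13.1%, and none reached 50%. Together they carried 31.4% of the substitutions of ES27L, so that the changes under the main peak were spread over the run. Across the T positions with at least 10 reads, the number of other T within 15 nt and the substituted share had a Spearman correlation of -0.25 in ES27L, -0.26 in ES15L and -0.26 over the 47S, a description.

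**Figure D5:**
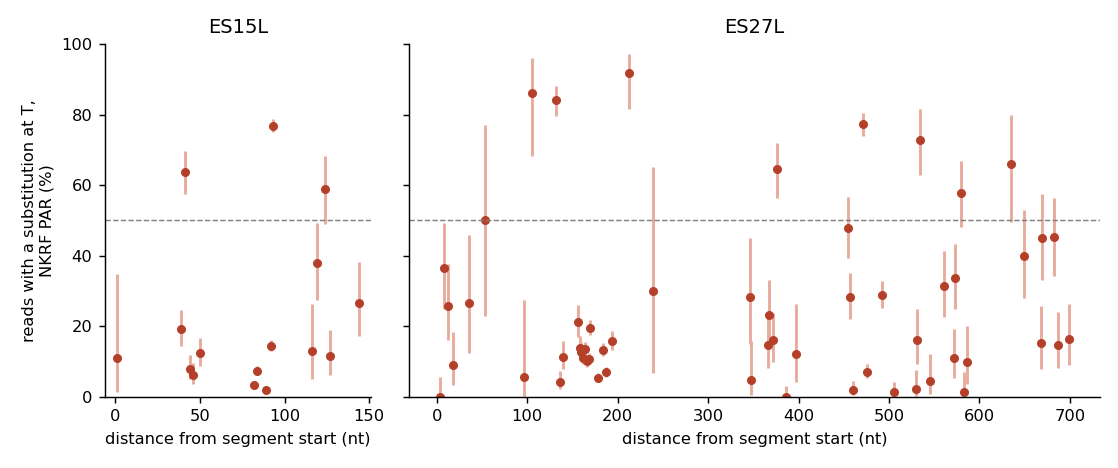
Share of NKRF PAR reads with a substitution at each T with at least 10 reads, in percent with exact 95% intervals, against the distance from the segment start, with a dashed line at 50%. In ES15L 3 of 16 and in ES27L 9 of 57 positions reach the line, and the 8 T of the alternating run, near 160 nt in ES27L, lie between 10.1% and 21.3%.

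A fold of minimum free energy predicted for each segment alone had 72.7% of ES15L and 79.2% of ES27L in base pairs. In ES27L 6 of 22 unpaired T and 3 of 35 paired T with at least 10 reads were substituted in at least 50%, with medians of 21.3% and 13.5%. In ES15L the numbers were 2 of 9 and 1 of 7. Mean NKRF UV coverage of paired and unpaired nucleotides was 2204 and 2184 normalised hits in ES27L and 3525 and 3465 in ES15L. The fold is a prediction without the rest of the ribosome.

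Deletions, which UV crosslinks can leave in cDNA, were sparse in both segments. They made up 0.0997% of the NKRF UV coverage in ES15L and 0.153% in ES27L, and 0.135% and 0.190% of the tag-only UV coverage. The rest of 28S had 0.177% and 0.179%. In each segment and library, T was the base with the highest deleted share, at 0.400% and 0.441% with NKRF in ES15L and ES27L and 0.576% and 0.520% with the tag alone, although A was at 0.438% in ES27L with NKRF. The 3 positions with the most deletions held 47.8% of those of ES15L and 24.96% of those of ES27L with NKRF.

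Deletions in at least 10% of at least 50 reads were found at 2 positions of ES27L and 0 of ES15L in the NKRF UV library, against 0.189% of positions over the 47S. With the tag alone they were found at 0 positions of either segment, against 0.176%. Position 3160, a C in the printed stretch without T, was deleted in 22.7% of 701 NKRF reads (19.6 to 26.0) and in 31.8% of 44 tag-only reads (18.6 to 47.6). Position 3506, an A, was deleted in 11.6% of 853 reads (9.53 to 13.9) and in 7.41% of 27 tag-only reads (0.910 to 24.3). It was also substituted in 28.8% of the NKRF reads (25.8 to 32.0) and in 22.2% of the tag-only reads (8.62 to 42.3). Position 3109 had the highest PAR substituted share among the T with at least 10 reads. It was deleted in 6.68% of 4655 NKRF UV reads (5.98 to 7.44) and in 9.24% of 249 tag-only UV reads (5.95 to 13.5). At all 3 positions the intervals of the 2 libraries overlapped. C 3332 was deleted in 9.52% of 147 NKRF reads (5.31 to 15.5) and in 0 of 8 tag-only reads. In the tag-only UV library T 2932, T 3032 and G 3366 followed, at 8.06% (2.67 to 17.8), 5.08% (1.89 to 10.7) and 3.81% (1.66 to 7.37). With NKRF they were at 1.08% (0.592 to 1.81), 2.89% (2.23 to 3.66) and 0.362% (0.232 to 0.538). The intervals of T 2932 and G 3366 did not overlap, and those of T 3032 did. In ES15L the most frequent were T 2220, at 2.23% of 314 reads (0.901 to 4.54), T 2215, at 1.79% of 280 (0.582 to 4.12), T 2188, at 1.64% of 7577 (1.36 to 1.95), and G 2138, at 1.38% of 7320 (1.13 to 1.67). With the tag alone T 2220 and T 2215 had 0 of 25 and 0 of 22 reads deleted and T 2188 had 1.96% of 255 (0.640 to 4.52). G 2138 was at 3.28% of 244 tag-only reads (1.43 to 6.36), and T 2140 at 2.99% of 268 (1.30 to 5.797), the latter above its 0.880% of 8525 NKRF reads (0.693 to 1.10) without overlap of the intervals.

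Some UV substitutions were common to both libraries and others were not. At least 10% of at least 50 reads were substituted at 6 of 165 positions of ES15L and 8 of 702 of ES27L with NKRF, against 1.09% over the 47S. With the tag alone they were 6 of 92 and 4 of 435, against 2.39%. At a minimum of 20 reads the ES27L counts were 8 of 702 with NKRF and 14 of 662 with the tag alone, which turns their order. G 3041 was substituted in 63.4% of 2247 NKRF UV reads (61.3 to 65.4) and in 73.9% of 111 tag-only UV reads (64.7 to 81.8). Of the positions of either segment with at least 50 reads it had the highest substituted share in the NKRF UV library. Substitutions in the NKRF PAR library were recorded at T alone, so no PAR share can be set beside this G. The files do not state which base replaced it.

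In ES15L, A 2207 was substituted in 21.7% of 267 NKRF reads (16.9 to 27.2) and in 47.4% of 19 tag-only reads (24.4 to 71.1). G 2195, the 3′ border of the peak, was substituted in 13.3% of 5189 NKRF reads (12.3 to 14.2) and in 21.8% of 193 tag-only reads (16.2 to 28.3), a higher share without overlap of the intervals. C 2119 was at 14.3% of 405 NKRF reads (11.1 to 18.1) and at 0 of 54 tag-only reads (up to 6.60). C 2116 was at 12.8% with NKRF (9.05 to 17.5) and 14.0% with the tag alone (5.30 to 27.9). G 2118 went the other way, at 18.9% of 53 tag-only reads (9.44 to 32.0) and 1.10% of 363 NKRF reads (0.301 to 2.80). In ES27L, C 3337 was at 20.3% of 271 NKRF reads (15.7 to 25.6) and 5.88% of 17 tag-only reads (0.149 to 28.7), and G 3007 at 14.9% of 840 (12.5 to 17.5) and 11.6% of 43 (3.89 to 25.1), both with overlapping intervals. In the tag-only UV library A 3100 was at 14.9% of 350 reads (11.3 to 19.0), above the 4.92% of 6935 NKRF reads (4.42 to 5.45), and T 3426 was at 12.6% of 238 (8.67 to 17.5) and 10.7% with NKRF (9.55 to 12.0). C 2984 had similar shares in both libraries, 11.9% of 59 tag-only reads (4.91 to 22.9) and 12.8% of 2376 NKRF reads (11.5 to 14.2).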

How the data were processed

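Per the labels' protocols, complexes were purified on anti-FLAG beads and then under denaturing conditions on Ni-NTA, the RNA was trimmed, and adapter-ligated cDNA was amplified by PCR. Mapping used Bowtie2 2.2.4, per the submitters' processing notes. The pre-rRNA reference, read filters and handling of reads with several matches, which bear on repeats such as those of ES15L and ES27L, were not given in the sources used here. The deposited signal is coverage per nucleotide of the 47S, with substitutions and, in the UV files, deletions; its values were whole multiples, after rounding, of 1 read per 1000000 reads. In the tag-only PAR file the header is shifted and coverage was read from the column headed as substitutions.

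The value of 1 read was fitted to the histogram of low values and tested on simulated data. Reads behind a region are the sum of all rises of its profile. Intervals are exact Clopper-Pearson 95% for shares and from the exact binomial split of reads for ratios; ratios of ratios use a log-normal interval. Where the tag alone had 0 coverage, the bound takes 3 reads spanning the tile. Peaks are local maxima with a prominence of at least 20% of the segment's highest coverage and at least 10 reads, bounded at 50% of their prominence. The text names up to 4 peaks per segment and library. It names the 5 (ES27L) and 2 (ES15L) examined tiles with the largest ratio in each mode, ranked with the pseudocount, and tiles called lower. The PAR ratio of positions 2168 to 2191 of ES15L was added after its value was seen. Among T with at least 50 NKRF PAR reads it names the 6 and 3 with the highest substituted share. The remaining T of ES27L with at least 10 reads and at least 50% substituted were added. Of UV changes it draws on the 4 highest shares per segment and library with at least 50 reads and 5 changed reads; the tiles along the main peak, those not called with UV, T 2188 and the T of the alternating run were added after their values were seen. The segments, rules and lists were chosen with earlier results of these data known. Folds printed for tiles leave out the pseudocount. Python 3.11.15, scipy 1.17.1 and RNAfold 2.7.2 were used. Alternatives were the scale, the borders, the pseudocount, the coverage minimum, tile size, the fold, the peak rule and the read minima.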

Additional observations from a re-analysis of the deposited data

Results flagged for a closer look

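One tile of ES27L, positions 2973 to 2997 of 28S, was called higher with NKRF in the UV pair and lower in the PAR pair, with log2 ratios of 3.76 and -1.72. The difference between the modes was not tested. The tag-only PAR value of this tile rests on about 2.02 reads, and the tile holds 1 T.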

How the results depend on the processing

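No paired analysis was possible because each group is 1 library, and for the same reason no replicate could be left out. Of 154 alternative values 117 kept within the main value's counting interval or 1.5 times the main count, and 37 moved. A turn of direction was looked for only in the 24 alternatives of the segment share ratios, where 0 turned. The UV share ratio of ES15L was 2.77 as a share of 28S, 3.99 against 28S without both segments and 21.1 per 1000000 reads; that of ES27L was 2.28, 3.29 and 17.4, and 6.86 with borders moved outward. The PAR ratio was 397 on that scale for ES15L, and 92.1 on it and 3.34 as a share of 28S for ES27L. ES27L tiles called higher with UV numbered 16 as shares of 28S and 17 scaled to the median tile. With PAR, higher and lower calls in ES27L were 11 and 6 as shares of 28S, 12 and 5 scaled to the median tile, 12 and 5 with a pseudocount of 5, 9 and 9 with one of 10, and 11 and 0 at 4-fold. Lower PAR calls were 0 on the scale per 1000000 reads, 1 of 13 in tiles of 50 nt and 4 of 61 in tiles of 10 nt. At 10% prominence the peaks were 2 in ES15L and 5 in ES27L for the tag-only UV library and 5 in ES27L for the NKRF UV library. At a threshold of 30%, 17 T of ES27L were counted as substituted. Without the 3 positions with the most deletions, the deleted share was 0.0540% (NKRF) and 0.0414% (tag alone) in ES15L, the reverse of the order with all positions. In ES27L it was 0.116% and 0.130%, in the same order as with all positions. Tag-only UV positions substituted in at least 10% were 2 in ES15L and 2 in ES27L at a minimum of 200 reads, and 14 in ES27L at a minimum of 20 reads, where 1 was deleted in at least 10%. The cause of these moves was not tested. The tag-only PAR depth, 3.03 reads in ES15L and 22.9 in ES27L, limits each PAR comparison.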
